A study of Drosophila melanogaster with 6 samples.

Results

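The genes described here are 7 transcription factor genes that give the fly antenna its identity and its pattern: Dll, ss, disco, disco-r, ct, al and Lim1. They were chosen by gene symbol, and all 7 were found among the 17609 gene symbols of the count table and were among the 9417 genes with enough counts to be tested. RNA was sequenced from eye-antennal imaginal discs, the larval epithelia that form the compound eye, the antenna, the maxillary palp and the head capsule of Drosophila melanogaster. The discs were taken in larval instar 3 from crosses kept at 25 °C. For all 6 libraries the labels give a maintenance temperature of 18 °C and an experiment temperature of 25 °C. One group of 3 libraries, here called dTet, carried ey-Gal4 with UAS-dTet, so that the fly member of the Tet dioxygenase family was expressed from the eyeless driver; the 3 control libraries carried ey-Gal4 with W1118 and no dTet transgene. Gal4 under the eyeless driver is therefore common to both groups, the driver is used as an eye-field driver, and one disc library holds the eye and the antennal parts together. Which cells of the disc expressed dTet cannot be read from these counts. The labels call the 3 libraries of a group biological replicates; they give neither the sex of the larvae nor the number of discs in a library.

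The antenna is a ventral appendage built on the same plan as the leg. The homeobox selector Dll specifies the distal appendage, and where it acts together with the Hox cofactor pair hth and exd the appendage develops as an antenna in place of a leg. ss, the fly relative of the dioxin receptor gene, is needed for distal antennal identity, while al and Lim1 pattern the most distal segments. The zinc finger genes disco and disco-r act in ventral appendages and in the gnathal head, and ct acts in the antennal and head part of the disc.

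Libraries held 16395675 to 20242356 counted read pairs, and the first principal component, with 63.5% of the variance, separated the dTet from the control libraries. Tet itself ranged from 315.8 to 384.7 CPM (read pairs scaled to library size, by TMM) in the controls, against 364.5 to 456.9 CPM with dTet, and it did not pass the test (log2 fold change 0.24, edgeR adjusted p = 0.244), so the group name rests on the labels. Counts per gene do not separate transcripts of the UAS-dTet transgene from those of endogenous Tet. Of all genes tested, 11.4% differed between the groups (edgeR adjusted p under 0.05), 355 being higher and 719 (7.64%) lower in dTet, and the median log2 fold change was -0.02. Markers listed for both parts of the disc were present in every control library. The 5 eye field markers were at or above 22.3 CPM, with Optix lowest. The 7 antennal markers outside the 7 genes were at or above 33.2 CPM, with B-H1 lowest. The latter include genes that also act in the eye, such as B-H1, B-H2, dan, danr, hth and eyg. The levels of these markers therefore do not stand for the antennal part alone.

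All 7 antennal genes rose in dTet discs, by 1.79 to 2.53 times, where 3.77% of all tested genes were called higher. Their log2 fold changes lay between 0.84 (ss) and 1.34 (al), with a median of 0.98, and 0 of them fell. In each of the 7, every dTet library stood above every control library, as it did in 15.1% of all tested genes. The summed length-scaled level of the 7 genes was 66.6 ± 5.81 CPM per kb of exon in controls and 132.1 ± 2.97 in dTet (mean ± SD, n = 3 each). Counts from bulk discs do not show which cells held this RNA. A larger share of antennal cells, more RNA per antennal cell and RNA in other disc cells cannot be told apart.

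**Figure D1:**
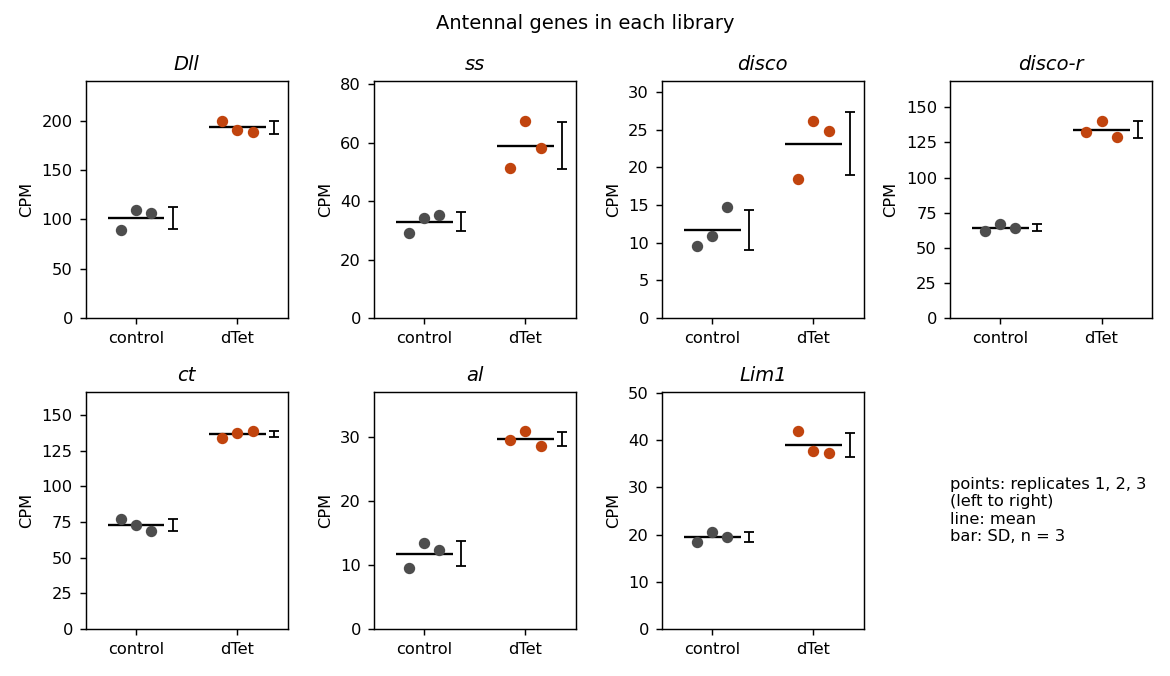
Level of each antennal gene in CPM, on axes that start at 0, in the 3 control (grey) and 3 dTet (red) libraries; lines are means and bars SD (n = 3). In every panel the dTet points lie above the control points, with the smallest gap in disco, between 14.7 and 18.4 CPM.

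Dll, the homeobox selector of distal appendages, lies on chromosome arm 2R at 24814822 to 24835667 (dm6). It measured 89.1, 109.6 and 106.8 CPM in control replicates 1, 2 and 3 and 200.2, 190.9 and 188.5 CPM in dTet replicates 1, 2 and 3. Control replicate 1 was the lowest of the controls, and the dTet libraries lay close together. The mean went from 101.8 ± 11.1 to 193.2 ± 6.17 CPM (n = 3 each), a 1.90-fold rise (95% interval 1.59 to 2.26; log2 SE 0.11; edgeR adjusted p = 0.00077). Between 1871 and 3856 read pairs stood behind each value, the deepest coverage of the 7 genes.

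ss encodes a bHLH-PAS factor whose loss turns the distal antenna into leg, and which also sets the choice between colour-vision cell subtypes in the retina. It lies on 3R at 16374434 to 16403690. The controls measured 29.2, 34.1 and 35.4 CPM and the dTet libraries 51.2, 67.5 and 58.2 CPM. The dTet libraries were more scattered than for Dll, with replicate 1 lowest and replicate 2 highest. ss rose 1.79-fold (95% interval 1.44 to 2.24; log2 SE 0.14; edgeR adjusted p = 0.00492), the smallest rise of the 7. The gene of its partner protein, tgo, had 31.1 to 42.1 CPM in the controls, against 37.4 to 46.9 CPM with dTet, and did not pass (log2 fold change 0.20, edgeR adjusted p = 0.426).

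disco and disco-r are neighbouring zinc finger genes on X, both on the minus strand, disco-r at 16118067 to 16148977 and disco at 16210598 to 16216750. The 61.6 kb between them hold 1 other annotated gene, a long noncoding RNA gene with no count in any library. disco-r measured 61.7, 66.8 and 64.3 CPM in controls and 132.4, 140.6 and 129.1 CPM in dTet. These were among the tightest groups of the 7 genes, with coefficients of variation of 4% and 4.44%. disco-r rose 2.08-fold (95% interval 1.78 to 2.44; log2 SE 0.10) and had the smallest adjusted p of the 7 (edgeR, 0.000159).

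disco, named for the disconnected visual nerve of its mutant, was less abundant and more variable. It measured 9.52, 10.9 and 14.7 CPM in controls and 18.4, 26.2 and 24.8 CPM in dTet. The highest control and the lowest dTet library came near each other, and the coefficients of variation were 23.0% and 18.0%. With 196 to 508 read pairs behind each value, disco rose 1.98-fold (95% interval 1.41 to 2.78; log2 SE 0.22; edgeR adjusted p = 0.0191). That call ended when control replicate 2 was left out (edgeR adjusted p = 0.0708), and likewise for replicates 2 (0.0812) and 3 (0.0918) of dTet, while its fold lay between 1.78 and 2.26 with any 1 library left out.

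Within each library disco-r exceeded disco per length of exon, by 2.83, 2.67 and 1.91 times in controls and by 3.14, 2.34 and 2.27 times in dTet. The ranges of this ratio overlapped between the groups. The mean log2 ratio was 1.28 ± 0.31 in controls and 1.35 ± 0.26 in dTet (n = 3 each), a difference of 0.07 with p = 0.9 in a two-sided exact permutation test, for which 0.1 is the smallest p that 3 against 3 libraries allow. The sign of that difference turned without control replicate 3 (-0.11) or dTet replicate 1 (-0.08).

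ct encodes a large homeobox protein of the antennal and head epithelium and of external sense organs, and lies on X at 7608428 to 7678859. It measured 77.4, 73.1 and 68.7 CPM in controls and 134.0, 137.5 and 138.6 CPM in dTet. The dTet libraries differed from each other by the least of any of the genes, with a coefficient of variation of 1.73%. ct rose 1.87-fold (95% interval 1.60 to 2.19; log2 SE 0.10; edgeR adjusted p = 0.000422). In controls it was the 1 gene of the 7 that stood above its group mean in replicate 1, where the other 6 stood below theirs.

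al encodes a homeodomain protein needed for the arista, the bristle-like tip of the antenna, and for the claws of the leg. It lies on 2L at 378112 to 387439. It measured 9.57, 13.4 and 12.3 CPM in controls and 29.6, 30.9 and 28.6 CPM in dTet, so that the groups were far apart for their spread. al had the largest rise of the 7, 2.53-fold (95% interval 1.94 to 3.30; log2 SE 0.17; edgeR adjusted p = 0.000944). Its interval overlapped those of the other 6 genes.

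Lim1 encodes a LIM homeodomain factor of distal antenna and leg, on X at 8756539 to 8805804. It measured 18.5, 20.6 and 19.4 CPM in controls and 41.9, 37.8 and 37.2 CPM in dTet. The groups were well apart and each was tight. Lim1 rose 2.00-fold (95% interval 1.62 to 2.45; log2 SE 0.13; edgeR adjusted p = 0.00123). Chi, Ssdp and the LIM-only gene Bx encode proteins that act with or against LIM factors. These genes gave log2 fold changes of -0.16, 0.30 and -0.59, and none of the 3 passed (edgeR adjusted p from 0.108 to 0.44). With control replicate 1 left out, Ssdp reached an edgeR adjusted p of 0.0372. Of all 6 partner genes listed (tgo, Chi, Ssdp, Bx, hth and exd), hth rose and 5 did not pass, with a median log2 fold change of 0.14.

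**Figure D2:**
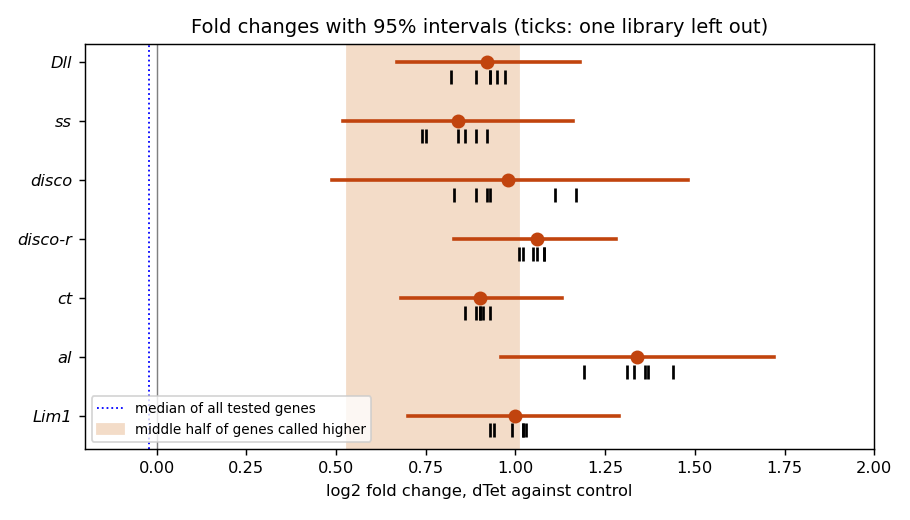
Log2 fold change of dTet against control for each antennal gene (points) with 95% intervals from the edgeR fit; ticks below each bar give the value with 1 library left out, the shaded band runs between the quartiles of the genes called higher (0.53 to 1.01), and the dotted line is the median of all tested genes. All intervals lie above 0, and al, at 1.34, is farthest to the right.

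The rises were close to each other in size. The genes called higher in the whole table had a median log2 fold change of 0.68, with quartiles at 0.53 and 1.01, and the 7 genes lay from 0.84 to 1.34. Only al and disco-r passed a minimum of 2-fold, and Lim1 was just under it; 0.998% of all tested genes passed it upward. Ratios taken within a library need no scaling between libraries, and they were compared for all 21 pairs of the 7 genes. In 16 pairs the control and dTet ratios overlapped, and in 5 they did not, where 38.9% of the pairs among the 350 genes called higher that had a count in every library did not overlap. Each of those 5 pairs contained al, with Dll, ss, ct, Lim1 and disco-r. The log2 ratio of al to ss, for example, ran from -0.09 to 0.18 in controls and from 0.40 to 0.73 in dTet. With 3 libraries a group no exact test of a single pair can fall below 0.1, so these differences remain descriptions.

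Levels of different genes were compared per kb of exon. In controls Dll stood far above the others at 30.8 ± 3.35 CPM per kb, followed by disco-r at 8.64 ± 0.346, al at 6.5 ± 1.09, ss at 6.33 ± 0.631, ct at 5.87 ± 0.35, Lim1 at 4.92 ± 0.265 and disco at 3.61 ± 0.83 (mean ± SD, n = 3). The library ranges of al and ss overlapped, as did those of ss and ct, so these neighbours cannot be ordered. The order of the means was the same in dTet, from 58.4 ± 1.86 CPM per kb for Dll to 7.13 ± 1.28 for disco. There al, at 16.4 ± 0.631 CPM per kb, stood wholly above ss, at 11.4 ± 1.57, and ss and ct overlapped. Dll made up 46.1% ± 1.06 of the summed length-scaled level of the 7 genes in controls and 44.2% ± 1.69 in dTet, and al went from 9.71% ± 0.84 to 12.4% ± 0.203.

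**Figure D3:**
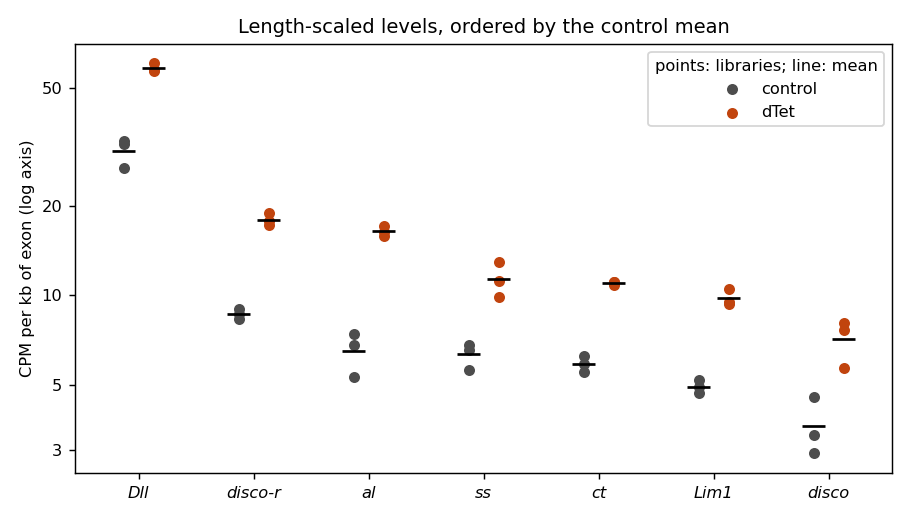
CPM per kb of exon, on a log axis, of each antennal gene in control (grey) and dTet (red) libraries, ordered by the control mean; lines are means. The order runs from Dll (30.8 in controls, 58.4 in dTet) to disco (3.61 and 7.13), and al separates from ss in dTet but not in controls.

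Across the 6 libraries the log2 CPM of any 2 of the 7 genes correlated with Pearson's r between 0.863 and 0.997, a description in which the difference between the groups and the library scaling are shared by all points. Of the 7 genes, 6 stood above their group mean in control replicate 2 and 5 in control replicate 3, but 1 in control replicate 1; in dTet 5 did in replicate 2 and 2 in each of the others. By the same measure the genes outside the 7 most like their mean profile were Mocs1, CG34056, Cnb, Sb, Fdh and CG44085 (r from 0.9937 to 0.9969 over 6 libraries). Among them Sb, a serine protease gene of disc eversion, went from 28.2 ± 1.38 to 60.7 ± 0.398 CPM. The genes most like disco were CR43697, Past1 and tara (r from 0.9933 to 0.9979), none of which passed the edgeR test (adjusted p from 0.0677 to 0.51).

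Genes beside the 7 in the genome were compared for position. No exon of another gene overlapped theirs on either strand, and no gene of the table lay inside their spans. Apart from disco and disco-r, which flank each other, the nearest tested genes on either side numbered 12. Of these edgeR called 0 (1 at an unadjusted p under 0.05, and 0 by DESeq2 or limma-voom), where 11.4% of all tested genes were called. So few genes cannot set 0 calls apart from that share. The log2 fold changes ran from -1.26 to 2.05. CG14880, CG42354, CG4213 and CG11368 had control means of only 0.211 to 1.94 CPM, where a change can hardly be called. CHES-1-like, whose near end lies 3.48 kb from ct, gave 0.03, and CG11368, 156 kb from ct on the other side, gave -1.26. Orc4 and Atf-2, on either side of Dll, gave 0.09 and -0.34. The gene at 2.05, CG14880 beside ss, had 0.211 ± 0.145 CPM in the controls, against 0.898 ± 0.232 CPM with dTet (edgeR adjusted p = 0.132).

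Of the 7 genes, 4 are on X (ct, Lim1, disco and disco-r), where 3.33% of 1563 tested genes were called higher and 5.89% lower, with a median log2 fold change of -0.00. Of 4 markers of X dosage and sex, 1 passed: the dosage compensation RNA gene lncRNA:roX1 had 855.6 to 989.1 CPM in the controls, against 590.2 to 735.0 CPM with dTet (log2 fold change -0.53, edgeR adjusted p = 0.0335). That call was lost when control replicate 3 (0.117) or either of dTet replicates 1 and 3 (0.127 and 0.158) was left out. Its part in the values of the X-linked genes was not tested. The 3 autosomal genes rose by 1.79 to 2.53 times and the X-linked 4 by 1.87 to 2.08 times.

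Other genes known from the antenna and from distal limbs went both ways. Of 24 such genes 23 were tested, and 7 rose, 9 fell and 7 did not pass, with a median log2 fold change of -0.11. C15, the homeobox partner of al in the arista and claw, rose from 11.5, 10.6 and 14.7 to 27.0, 27.6 and 25.5 CPM (2.17-fold, edgeR adjusted p = 0.00282). bab2, a BTB factor of distal segments, rose 2.04-fold (adjusted p = 0.00122), and its paralog bab1, at 4.04 ± 0.959 CPM in controls, gave a log2 fold change of 0.63 and did not pass. hth, the partner of Dll in antennal identity, rose 1.54-fold from 410.2 ± 11.1 to 630.0 ± 30.8 CPM, while its partner exd gave 0.08 and did not pass (adjusted p = 0.655). The Pax gene eyg and bowl, drm and sob, of the odd-skipped family of leg joints and disc margins, rose by 1.35 to 1.49 times. These 4 calls were lost with some libraries left out, which took the adjusted p to at most 0.142 for eyg, 0.0638 for bowl, 0.105 for drm and 0.0886 for sob.

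The 9 that fell include genes that also act in the eye. dac fell 5.82-fold and lz, a Runx gene of photoreceptors and antennal sense organs, fell 7.10-fold. rn, a zinc finger gene of the tarsus, antenna and eye, fell from 48.8, 56.3 and 56.1 to 12.9, 13.7 and 14.6 CPM (3.91-fold, edgeR adjusted p = 2.03e-05). The Bar homeobox genes B-H1 and B-H2, of distal limb segments and of a photoreceptor pair, fell 2.21-fold and 2.65-fold. dan and danr, pipsqueak-family genes of distal antenna and eye, fell from 80.1 ± 15.8 to 33.3 ± 2.64 CPM and from 105.2 ± 9.21 to 71.4 ± 3.08 CPM. ato, the proneural gene of photoreceptors and of the antennal hearing organ, fell 1.54-fold (edgeR adjusted p = 0.0218), a call that ended without control replicate 2 or 3 or dTet replicate 2 or 3 (adjusted p from 0.0713 to 0.108); that of danr ended without dTet replicate 2 (0.0543) or 3 (0.0576). Dlip3, a MADF-BESS factor gene, fell most: it stood at 9.19, 10.9 and 9.70 CPM in controls and at 0, 0.546 and 0.440 CPM in dTet (29.0-fold, edgeR adjusted p = 0.00184; 20.1-fold to 41.2-fold with 1 library left out and 46.7-fold by limma-voom). amos was not tested, with at most 0.280 CPM.

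**Figure D4:**
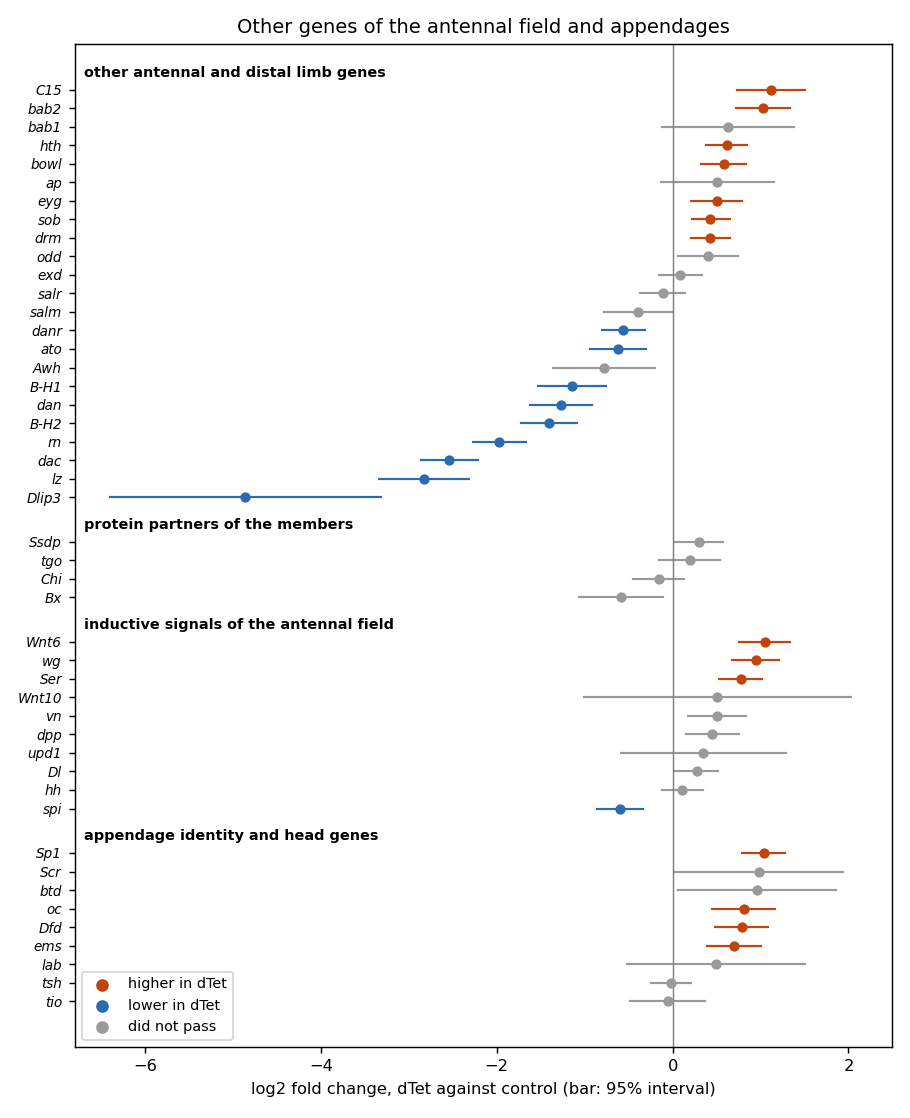
Log2 fold change of dTet against control (points) with 95% intervals for the other genes of 4 lists, red where higher, blue where lower and grey where the edgeR test was not passed; hth and exd are drawn once. The limb and antennal list runs from -4.86 (Dlip3) to 1.12 (C15), and the head and appendage list has 4 genes higher and 0 lower.

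Among genes of appendage and head identity, 4 of 9 tested rose and 0 fell (0 at an unadjusted p under 0.05, and 0 by DESeq2 or limma-voom), with a median log2 fold change of 0.79. Sp1, a zinc finger gene that acts upstream of Dll in ventral appendages, rose from 30.4, 29.9 and 28.7 to 59.4, 61.2 and 62.2 CPM (2.05-fold, edgeR adjusted p = 0.000313), and its paralog btd, below 8 CPM in every library, gave 0.96 and did not pass (adjusted p = 0.152). The head genes Dfd, oc and ems rose by 1.63 to 1.75 times; without control replicate 3 the calls of oc (0.0548) and ems (0.0556) ended. Of 10 genes of the signals that pattern the field, wg, Wnt6 and Ser rose 1.93-fold, 2.07-fold and 1.71-fold and the EGFR ligand gene spi fell 1.51-fold (adjusted p = 0.0614 and 0.0586 with replicate 2 or 3 of dTet left out), whereas dpp (0.45, adjusted p = 0.0581; 0.0258 by DESeq2 and 0.00205 with control replicate 1 left out) and hh (0.11, 0.494) were among the 6 that did not pass; the median of the 10 was 0.48.

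Of 7 antennal markers outside the 7 genes, hth and eyg rose and 4 fell, with a median log2 fold change of -0.56. The summed level of these markers was 771.9 to 808.6 CPM in the controls and 837.5 to 916.9 CPM with dTet. That sum is dominated by hth, the most abundant marker, which climbed from 398.5 to 420.5 up to 606.1 to 664.8 CPM. The higher sum therefore rests mainly on hth and does not stand for the markers as a set. Markers of other cells were measured as well. All 5 eye field markers and all 5 photoreceptor markers fell, and their summed levels went from 1034 to 1183 down to 278.4 to 296.5 CPM and from 658.0 to 746.1 down to 52.9 to 58.6 CPM. Dll and al are also leg genes; the thoracic Hox genes Antp and Ubx stayed at or below 0.558 CPM in every library, and Ubx had no count in 4 of them, while Scr had 1.43 to 4.07 CPM in the controls, against 5.38 to 6.01 CPM with dTet (edgeR adjusted p = 0.165). Of the wing genes nub had 7.59 to 8.36 CPM in the controls, against 12.1 to 14.0 CPM with dTet (edgeR adjusted p = 0.0466; above 0.05 without any 1 library other than control replicate 1, up to 0.149, under upper quartile scaling, 0.0504, and with no filter on low counts, 0.0751), vg did not pass and pdm2 was at or below 0.733 CPM. Of 8 muscle markers Mhc and bt rose about as much as the antennal genes (2.04-fold and 2.08-fold; for Mhc the adjusted p was 0.056 with control replicate 3 left out), with summed levels of 732.4 to 813.6 CPM in the controls, against 841.4 to 1223 CPM with dTet, highest in dTet replicate 2. Of 5 glial markers 3 fell (summed 188.4 to 222.7 CPM, then 108.6 to 127.0 CPM), of which repo and moody lost their calls with replicate 2 or 3 of either group left out (edgeR adjusted p from 0.0506 to 0.0927), and of 5 salivary glue genes 1 fell (24.6 to 65.8 CPM, then 1.26 to 17.7 CPM), and 0 neuroblast, hemocyte, fat body or tracheal markers passed edgeR, DESeq2 or limma-voom (2, 2, 1 and 0 at an unadjusted p under 0.05). The part of these cells in the antennal values was not tested. Without dTet replicate 2 the folds of the 7 genes were 1.66 to 2.48. The muscle sum lay above the controls in every dTet library, so these folds do not bear on the part of muscle.

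**Figure D5:**
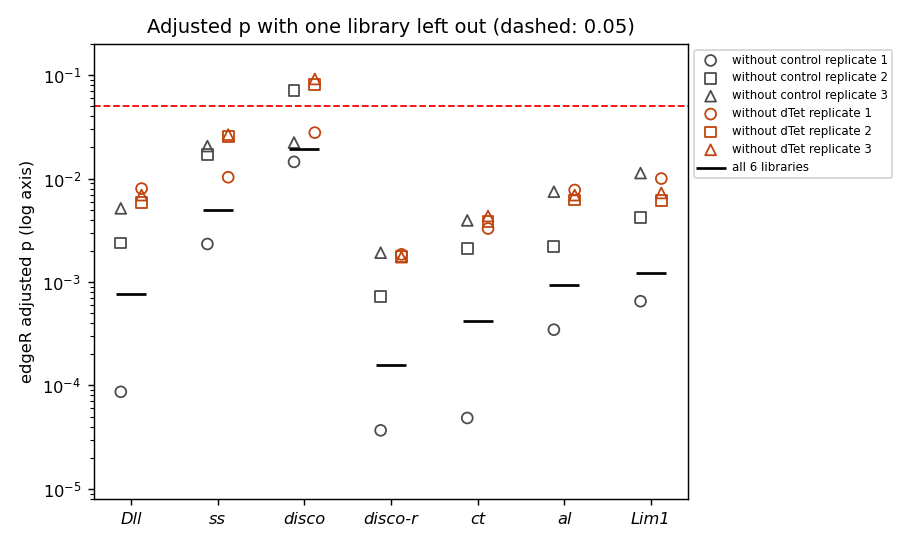
Adjusted p of the edgeR test, on a log axis, for each antennal gene with all 6 libraries (black lines) and with each library left out (symbols). Values of disco pass above the dashed line at 0.05 without control replicate 2 or dTet replicate 2 or 3; those of the other 6 genes stay at or below 0.0266.

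The share of all tested genes called higher moved with the library left out: leaving out replicate 1, 2 or 3 of the controls gave 14.5%, 1.97% and 1.4%, and leaving out those of dTet gave 2.02%, 1.58% and 1.35%. All 7 antennal genes were called in 3 of these 6 settings and all but disco in the other 3. With all libraries the 7 were called under each other scaling, filter, tool or block, where 3.87% (DESeq2 size factors), 3.71% (upper quartile scaling), 3.07% (no filter), 4.26% (1 CPM in 3 libraries), 6.99% (DESeq2), 4.19% (limma-voom) and 2.96% (replicate block) of tested genes were called higher. At an adjusted p of 0.01, 6 of the 7 were called, disco being the exception, beside 1.21% of tested genes.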

How the data were processed

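Per the labels' protocols, the 6 disc samples gave stranded libraries of total RNA. Per the submitters' processing notes, reads were checked with FastQC 0.12.1 and aligned with HISAT2 2.2.0 to dm6. Per the file headers, the authors counted read pairs over exons with featureCounts 2.0.6, FlyBase annotation 6.45 and strand setting 2, and the deposited counts are unnormalized whole numbers for each symbol. Counts carry no molecular identifiers, so molecules and amplified copies are not separated.

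The comparison used edgeR 4.0.16 in R 4.3.3: filterByExpr (9417 genes kept), TMM scaling, the quasi-likelihood test of dTet against control without covariates, and Benjamini-Hochberg adjustment over all tested genes at 0.05. CPM values use TMM-scaled library sizes; CPM per kb divides by the exon length in the count table. Alternatives used DESeq2 1.42.0, limma 3.58.1 (voom), other scalings and filters, a replicate block and each library left out. The edgeR steps were tested on simulated data. The antennal genes, the lists of other genes and markers, and the tests were chosen with earlier results of these data known. Besides the 7 genes, the text names up to 6 called genes of smallest adjusted p per list and direction, their relatives and partners, nearest tested neighbours, and the genes most like the 7 in profile (Pearson's r on log2 CPM, prior count 2). Tet, eyg, ato, nub and other markers were named after their values were seen.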

Additional observations from a re-analysis of the deposited data

How the results depend on the processing

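Of 91 values of the 7 antennal genes under 13 other settings, 88 kept direction and call. The other 3 were disco with replicate 2 of either group or replicate 3 of dTet left out; its log2 fold change lay between 0.83 and 1.17 with 1 library left out. All tested genes called numbered 1733 by DESeq2, 512 at an adjusted p of 0.01 and 560 to 3231 with 1 library left out. Replicate numbers did not pair the samples (correlations of deviations 0.031, 0.021 and -0.1); with the replicate block 902 genes were called, the 7 antennal genes among them, and eyg, drm, sob, nub and lncRNA:roX1 lost their calls. Of 998 values of 77 other genes, 926 kept their call, 50 lost it, 10 gained it and 12 changed sign. The sign changes, all with 1 library left out and none in a called gene, were in Wnt10 (-0.20 to 0.82), tsh (-0.06 to 0.01), tio (-0.17 to 0.07), Fntb (-0.02 to 0.10), Ent1 (-0.10 to 0.02), CG11368 (-2.12 to 0.18), CHES-1-like (-0.18 to 0.16) and CG12075 (-0.13 to 0.10). The log2 ratio of disco-r to disco differed between groups by -0.11 to 0.18, reversing without control replicate 3 (-0.11) or dTet replicate 1 (-0.08). The cause of these changes was not tested. With 3 libraries a group, differences between the 7 genes smaller than their intervals could not be resolved, least of all for disco, the gene with the fewest read pairs per kb.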
